A study of Mus musculus with 6 samples.

Results

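Heat shock chaperone genes were examined in LSK cells, the lineage-negative, Sca1-positive, c-Kit-positive bone marrow fraction that holds hematopoietic stem cells and multipotent progenitors. The 10 genes (*Hspa1a*, *Hspa1b*, *Dnajb1*, *Hsph1*, *Hsp90aa1*, *Hspa8*, *Hsp90ab1*, *Dnaja1*, *Hspd1* and *Hspe1*) were taken by name from an expression table of 54532 genes, and all 10 were found in it. They were chosen by their measured difference between the groups described next, so the differences of these 10 genes are given as a description and carry no test. Levels are given as FPKM, fragments scaled to gene length and to the size of the library. All 10 were among the 11552 genes whose average over the 6 libraries reached 1 FPKM.

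RNA-seq was performed on 3 control libraries (CTRL, Myh9fl/fl;no cre) and 3 libraries labelled cKO (Myh9fl/fl;Mx1-cre), to look into the hematopoietic defects of mice made deficient in *Myh9*, the gene of the non-muscle myosin heavy chain IIA. Both groups were C57BL/6 littermates, carried the floxed *Myh9* alleles and received 5 mg/kg poly I:C, a double-stranded RNA mimic that induces interferon, from 5 to 6 weeks of age. The sample descriptions give 2 doses and the methods of the study 3. LSK cells were sorted 4 days after the first injection, 100000 for each library. Cre in this model is driven by the interferon-inducible *Mx1* promoter, which is active beyond blood cells, and only the deficient mice carried Cre, so an effect of Cre itself and the loss of *Myh9* cannot be told apart. The libraries came from independent sets of cells, but the number of mice behind each set was not given, so the spread between libraries may be partly technical.

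Each library held 17571544 to 19894562 reads on genes. *Myh9* was measured at 22.5 ± 0.495 FPKM (SD, n = 3) in CTRL and 18.7 ± 1.18 FPKM in cKO libraries (log2 fold change -0.26, limma adjusted p = 0.00642), 17.1% lower. This measure covers the whole gene, so these values do not show how much of the floxed exon was deleted. The LSK markers were present, with *Kit* at 23.9 and *Ly6a* (Sca1) at 95.4 FPKM on average in CTRL libraries. Of 7 tested LSK markers, 1 was higher and 3 were lower in cKO libraries (limma adjusted p under 0.05). The higher one was *Flt3*, which marks multipotent progenitors, by 51.8%. *Kit*, *Ptprc* and *Spn* were lower, with log2 fold changes of -0.14, -0.15 and -0.24. Of the lineage markers that the sort depletes, *Cd8a* and *Cd8b1* had at most 3 reads in any library. *Cd3d* had 2, 9 and 3 reads in CTRL and 44, 54 and 48 in cKO libraries, *Cd3g* 1 to 4 and 35 to 49, *Cd3e* 0 and 14 to 21, and *Cd4* 22 to 27 and 53 to 67. *Ly6c2* was present at 343 to 381 FPKM in CTRL and 122 to 140 FPKM in cKO libraries. All the cell type lists examined held genes that differed between the groups. The 15 neutrophil and monocyte genes summed to 10724 to 10796 FPKM in CTRL and 6025 to 6144 FPKM in cKO libraries, with 12 of 13 tested genes lower, and the 14 erythroid genes summed to 448 to 451 and 806 to 834 FPKM, with 11 of 11 tested genes higher. Of the T and NK cell list, 3 of 4 tested genes were higher and 1, *Nkg7*, was lower. *Nkg7*, at 353 FPKM in CTRL and 280 FPKM in cKO libraries on average, made up most of the summed level. That sum was 366 to 379 FPKM in CTRL and 341 to 345 FPKM in cKO libraries. Of the B and plasma cell list, 3 of 6 tested genes were higher and 1 lower (167 to 171 and 162 to 167 FPKM). Of 20 S phase genes, 13 were lower and 1 higher (1138 to 1147 and 1018 to 1031 FPKM). The 21 early response genes, switched on rapidly by many signals, summed to 1064 to 1085 FPKM in CTRL and 564 to 578 FPKM in cKO libraries, with 17 of 19 tested genes lower. The part of these lists in the chaperone values was not tested. In bulk RNA, fewer cells that express a gene and less of its RNA per cell cannot be told apart.

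Chaperones bind unfolded or partly folded proteins and keep them from aggregating. HSP70 proteins work in cycles of ATP hydrolysis, which J proteins (the DNAJ family) stimulate and HSP110 proteins reset by exchanging the nucleotide, and they pass clients such as kinases and steroid receptors on to HSP90. When proteins unfold, the heat shock factor HSF1 is released, forms trimers and binds heat shock elements, runs of the unit NGAAN in alternating orientation, upstream of the inducible members. The constitutive members supply unstressed cells, and the mitochondrial pair folds proteins imported into the matrix. Blood stem cells are known to depend on a controlled rate of protein synthesis and on HSF1-directed quality control when they are cultured.

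Of the 5 inducible members, 3 lay below their control range in all cKO libraries, 1 above and 1 overlapped it, and of the 3 constitutive members 1 lay below, 1 above and 1 overlapped. Both mitochondrial members lay above. Of all 11552 genes tested, 28.5% lay wholly below their control range and 25.5% wholly above it, so such separation was common. *Hspa1b* and *Hspa1a*, the stress-inducible HSP70 genes, were 11.8-fold and 5.74-fold lower in mean FPKM in cKO than in CTRL libraries. The inducible J protein gene *Dnajb1* was lower by a smaller amount, and the inducible HSP110 and HSP90 genes *Hsph1* and *Hsp90aa1* lay close to their control levels. The constitutive *Hspa8* was 18.3% lower, *Hsp90ab1* lay at its control level, and *Dnaja1*, *Hspd1* and *Hspe1* were 16.3% to 23.6% higher.

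**Figure D1:**
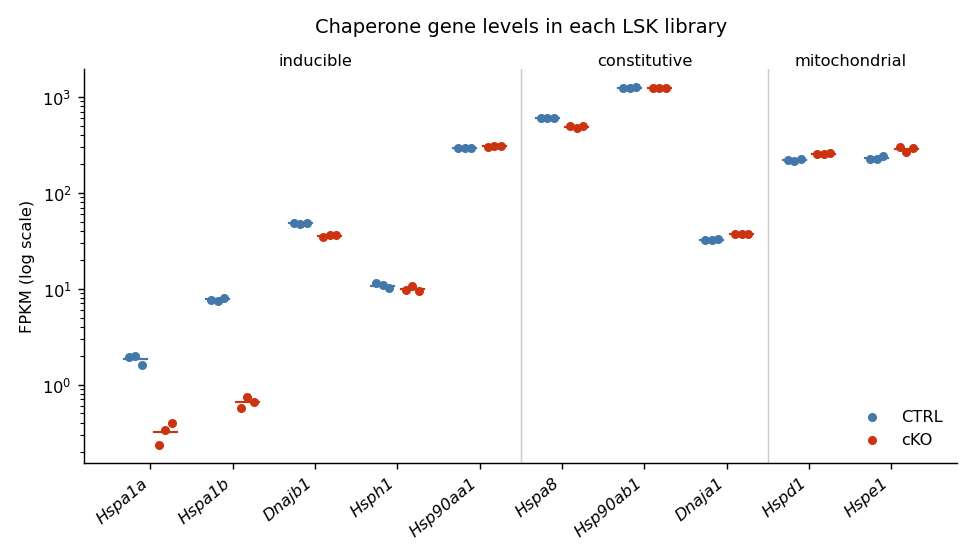
Level of each of the 10 chaperone genes in FPKM, on a log axis, in the 3 CTRL (blue) and 3 cKO (red) libraries, with the group mean as a bar and genes ordered by class. The libraries of each gene lie close together, and the groups stand farthest apart for *Hspa1b* (11.8-fold) and *Hspa1a* (5.74-fold).

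Across all genes tested, 19.9% passed limma's test (adjusted p under 0.05) as higher and 20.6% as lower in cKO libraries. Of the 10 members, 3 were past this threshold as higher, 4 as lower and 3 were not past it, a count that describes genes chosen on these values and supports nothing further. The 4 include *Hspa1a* and *Hspa1b*, whose cKO values all lie below 1 FPKM. Every cKO library lay above every CTRL library for 4 members, against 25.5% of all genes tested, and below for 4 members, against 28.5%. The groups overlapped for the remaining 2, *Hsph1* and *Hsp90ab1*. The median log2 fold change was -0.42 over the 5 inducible members, -0.014 over the 3 constitutive members and 0.27 over the 2 mitochondrial members, against -0.0096 over all genes tested. These fold changes are on the log2(FPKM + 1) scale, which understates the difference of low genes.

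**Figure D2:**
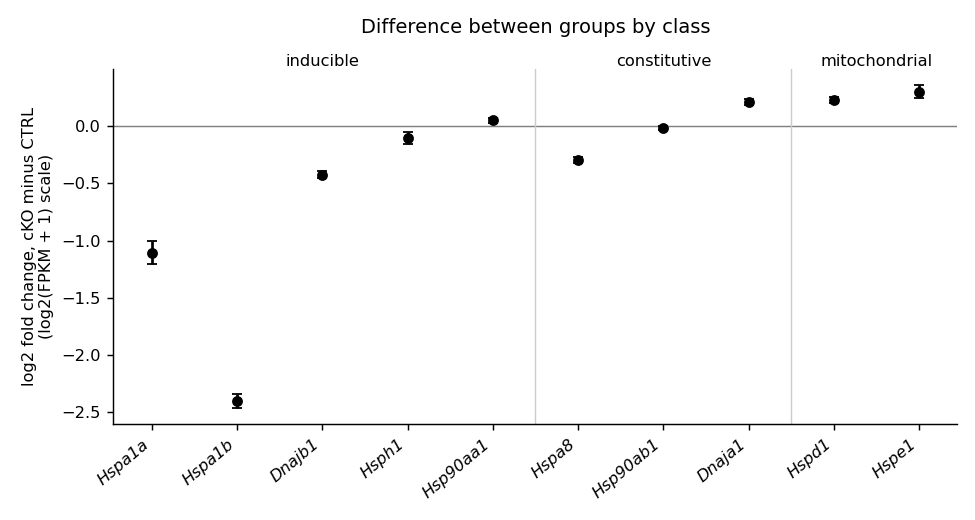
Log2 fold change of each chaperone gene (cKO minus CTRL, on the log2(FPKM + 1) scale), with bars of 1 standard error from the limma fit on 3 libraries per group. The values run from -2.40 for *Hspa1b* to 0.30 for *Hspe1*, and the inducible class spans from the lowest value to 0.05 for *Hsp90aa1*.

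*Hspa1b* (ENSMUSG00000090877) encodes an HSP70 protein that is scarce in resting cells and abundant after heat or proteotoxic stress. It is a gene of 1 exon on the minus strand at chr17:34956436-34959238 (mm10, the same assembly as GRCm38). Its level was 7.70, 7.51 and 7.99 FPKM in the CTRL libraries and 0.571, 0.744 and 0.652 FPKM in the cKO libraries. All cKO libraries lay far below all CTRL libraries, and the spread within each group was small beside the distance between them. The log2 fold change was -2.40 (SE 0.062), or -3.38 with a pseudocount of 0.1 and -3.53 with voom on the recovered reads. The values rested on 429, 371 and 430 reads in CTRL and 30, 38 and 34 reads in cKO libraries, all above a floor of 3 reads.

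*Hspa1a* (ENSMUSG00000091971), its neighbour at chr17:34969190-34972156 on the same strand, also has 1 exon and encodes a nearly identical protein. It was measured at 1.95, 2.01 and 1.58 FPKM in CTRL and at 0.234, 0.333 and 0.398 FPKM in cKO libraries. Again no cKO library reached any CTRL library. The log2 fold change was -1.11 (SE 0.099), or -2.22 with a pseudocount of 0.1 and -2.49 with voom. The reads were 115, 105 and 90 in CTRL and 13, 18 and 22 in cKO libraries, so the cKO values carry a large counting error. With a mean of 1.08 FPKM over all 6 libraries, *Hspa1a* passed the filter on low values through its CTRL libraries alone, and so did *Hspa1b*, whose cKO mean was 0.656 FPKM.

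The genes lie 9951 bases apart, and much of their sequence is shared. Of all stretches of 50 bases in the *Hspa1a* transcript, 58.8% also occurred in *Hspa1b*, and 62.3% of those of *Hspa1b* occurred in *Hspa1a*. How the counting program treated reads that fit both was not given in the sources used here, so the split between them is uncertain and their sum is the firmer value. The sum was 9.58 ± 0.0637 FPKM (SD, n = 3) in CTRL and 0.977 ± 0.149 FPKM in cKO libraries, a 9.80-fold lower level. *Hspa1a* made up 19.3% of the sum in CTRL and 32.6% in cKO libraries, a share that the shared reads leave uncertain. The neighbouring HSP70-like gene *Hspa1l*, which is mainly expressed in testis, and the antisense gene *Gm10501* share shorter stretches with both, and they had 4 to 18 reads in each library of either group. Their reads came to 19.7% of those of *Hspa1a* in CTRL but 139.6% in cKO libraries, and to 4.96% and 72.5% of those of *Hspa1b*. The gene *Gm20481*, annotated across 2225 bases of *Hspa1a* on the opposite strand, had 0 reads.

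The sequence upstream of *Hspa1a* is shown because this pair carries the largest difference among the members. The 250 bases before the transcript start, chr17:34972157-34972406 in RefSeq on GRCm38.p6, read from 5′ to 3′ on the minus strand, with the match to the paired heat shock units GAANNTTC in capitals:
Hspa1a: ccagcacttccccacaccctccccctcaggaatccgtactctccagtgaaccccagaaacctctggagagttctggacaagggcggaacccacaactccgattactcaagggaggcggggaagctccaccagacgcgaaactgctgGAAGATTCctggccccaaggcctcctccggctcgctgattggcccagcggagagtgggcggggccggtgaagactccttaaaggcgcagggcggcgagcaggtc
The match began 104 bases before the start. The same window of *Hspa1b*, chr17:34959239-34959488, was identical at 247 of 250 positions and held the same match at the same distance. The differences, with the base of *Hspa1a* first and positions counted from 1 at the 5′ end of the window, were C44T, T47C and T249G. None of them lay in the match.

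Heat shock units were searched in the same way in all promoter windows of the RefSeq table (250 bases before to 50 bases after each start, both strands, which read alike for these palindromes), and 12 windows covered 7 of the 10 members. *Hspa8*, *Hsp90aa1* and *Hsp90ab1* had no entry. GAANNTTC was found for 6 of the 7 members and for 9.04% of all 27025 genes in the table, and TTCNNGAA for 3 of the 7 members and 9.60% of all genes. By window, GAANNTTC was in 7 of the 12 member windows and in 7.86% of all 32851 windows. These member counts are not of separate matches. *Hspd1* and *Hspe1* share the same match on the genome, as do the overlapping windows of *Hsph1*, and the windows of *Hspa1a* and *Hspa1b* are nearly identical. Runs of at least 3 units, in which both pairs overlap, were found for *Hsph1*, *Hspd1* and *Hspe1*, and for 0.662% of all genes. Both windows of *Dnajb1* held neither pair. A match is a run of letters and no measure of HSF1 binding, and members with a lower level (*Hspa1a* and *Hspa1b*) and with a higher level (*Dnaja1*, *Hspd1* and *Hspe1*) in cKO libraries both held one.

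**Figure D3:**
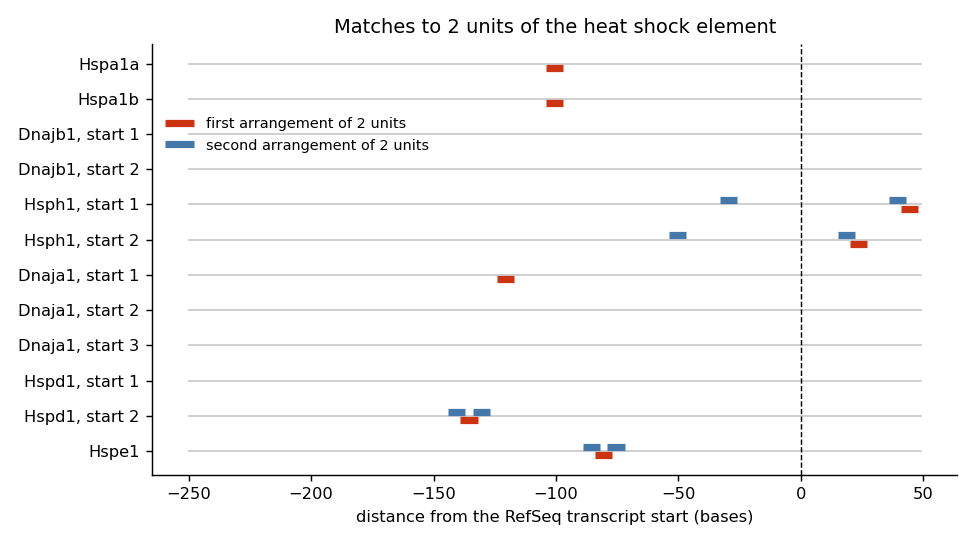
Positions of matches to a pair of heat shock units in the 12 RefSeq promoter windows of 7 chaperone genes, as the distance in bases from the transcript start (dashed line), with the GAANNTTC arrangement in red and TTCNNGAA in blue. *Hspa1a* and *Hspa1b* share a single match at the same distance, and *Hspd1* and *Hspe1* hold a run in which 3 matches overlap.

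*Dnajb1* (ENSMUSG00000005483, chr8:83608193-83612653, plus strand) encodes the main stress-inducible J protein, the partner that hands substrates to HSP70 in the cytosol and nucleus. It was expressed at 48.6, 46.8 and 48.3 FPKM in CTRL and at 34.5, 36.0 and 35.9 FPKM in cKO libraries. The groups were separate, with a gap several times the spread within either of them. The mean was 25.9% lower in cKO libraries (log2 fold change -0.42, SE 0.031).

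*Hsph1* (ENSMUSG00000029657, chr5:149614287-149636376, minus strand) encodes an inducible HSP110 protein that exchanges the nucleotide of HSP70. Its level was 11.3, 10.8 and 10.2 FPKM in CTRL and 9.79, 10.6 and 9.53 FPKM in cKO libraries. The second cKO library lay within the control range, so the groups overlapped. The log2 fold change was -0.10 (SE 0.055, 95% interval -0.23 to 0.03), and -0.041 once GC content and length trends had been removed. The promoter of *Hsph1* held a run of 3 units just after the start, unlike the other inducible members with a window, and a separate pair before it. The run and its flanks, with the units in capitals, lie at chr5:149636287-149636316 on the minus strand (GRCm38.p6):
Hsph1: agtaaaatgctgcagaTTCTGGAAAGTTCt

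*Hsp90aa1* (ENSMUSG00000021270, chr12:110690605-110702728, minus strand) encodes the inducible cytosolic HSP90. Its level was 295, 294 and 292 FPKM in CTRL and 301, 310 and 304 FPKM in cKO libraries. The cKO libraries lay above the CTRL libraries by a narrow margin (log2 fold change 0.05, SE 0.022). This direction turned under quantile normalization, to -0.0093. Its constitutive paralogue *Hsp90ab1* (ENSMUSG00000023944, chr17:45567775-45573271, minus strand) was the most abundant member, 49th of all genes tested by its CTRL mean. It was measured at 1237, 1232 and 1257 FPKM in CTRL and at 1237, 1230 and 1224 FPKM in cKO libraries. The groups overlapped, and the log2 fold change of -0.01 (SE 0.020) had a 95% interval of -0.063 to 0.035. The sum of both cytosolic HSP90 genes was 1536 ± 11.9 FPKM (SD, n = 3) in CTRL and 1535 ± 6.32 FPKM in cKO libraries.

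*Hspa8* (ENSMUSG00000015656, chr9:40800984-40810087, plus strand) encodes HSC70, the constitutive cytosolic HSP70 that also serves clathrin uncoating and chaperone-mediated autophagy. It was expressed at 601, 597 and 594 FPKM in CTRL and at 493, 474 and 496 FPKM in cKO libraries. All cKO libraries were below all CTRL libraries, with the second the lowest. The log2 fold change was -0.29 (SE 0.025). The 3 HSP70 members *Hspa8*, *Hspa1a* and *Hspa1b* summed to 603 to 611 FPKM in CTRL and 475 to 497 FPKM in cKO libraries. *Hspa1a* and *Hspa1b* together made up 1.58% of this sum in CTRL and 0.200% in cKO libraries. A further HSP70 gene, *Hspa2*, is not in the sum and had 7.29 ± 0.759 FPKM (SD, n = 3) in CTRL and 5.60 ± 0.0712 FPKM in cKO libraries. Processed pseudogenes resemble *Hspa8* over most of its length, but the 10 that share at least 100 stretches of 50 bases with it held reads equal to 0.207% of its own in CTRL and 0.274% in cKO libraries. Other genes also held 58.5% of such stretches of *Hsp90aa1*, 44.8% of *Hspd1*, 44.8% of *Hspe1* and 28.8% of *Dnaja1*. Reads of the copies came to 1.7% and 1.6% of those of *Hsp90aa1* in CTRL and cKO libraries, and 2.2% and 1.7% for *Hspd1*. For *Dnaja1* they came to 45.0% and 42.7%, with the overlapping gene *Smu1* among the copies. The copy of *Hspe1* had no measured values.

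*Dnaja1* (ENSMUSG00000028410, chr4:40722150-40737149, plus strand) encodes a farnesylated J protein that works with HSC70 on newly made and imported proteins. Its level was 31.8, 31.9 and 32.6 FPKM in CTRL and 37.1, 37.4 and 37.4 FPKM in cKO libraries. The cKO libraries lay above the CTRL libraries with a spread of less than 1 FPKM in either group (log2 fold change 0.21, SE 0.026). It overlaps the gene *Smu1* on the opposite strand by 608 bases, and the library kit does not mark strand. Of its 3 RefSeq starts, the window of the first held a GAANNTTC match, shown in capitals at chr4:40722333-40722362 on the plus strand (GRCm38.p6):
Dnaja1: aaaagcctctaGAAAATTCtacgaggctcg

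*Hspd1* (ENSMUSG00000025980, chr1:55077835-55088243, minus strand) and *Hspe1* (ENSMUSG00000073676, chr1:55088132-55091307, plus strand) encode HSP60 and HSP10, the barrel and the lid of the mitochondrial chaperonin. *Hspd1* was measured at 216, 213 and 224 FPKM in CTRL and at 255, 255 and 256 FPKM in cKO libraries. *Hspe1* was measured at 226, 223 and 241 FPKM in CTRL and at 296, 262 and 294 FPKM in cKO libraries. For both genes every cKO library lay above every CTRL library, and the second cKO library of *Hspe1* was the nearest to the controls. The log2 fold changes were 0.23 (SE 0.025) for *Hspd1* and 0.30 (SE 0.054) for *Hspe1*. They were 0.18 for both genes once each library had been corrected for GC content and length.

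This gene pair lies head to head, with annotated ends that overlap by 112 bases, and is read outward from a shared promoter. Their promoter windows held the same run of 4 alternating heat shock units on opposite strands, shown because it is the longest run among the members. It lies at chr1:55088053-55088082 (GRCm38.p6), with the units in capitals:
Hspd1: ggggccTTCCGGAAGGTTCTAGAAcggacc
Hspe1: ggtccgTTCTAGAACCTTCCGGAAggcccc
The first of these lines is on the minus strand and the second on the plus strand. The run began 144 bases before the *Hspd1* start in that window and 89 bases before the *Hspe1* start.

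Ratios between related genes within a library do not depend on how the libraries were scaled. The log2 ratio of *Hspa1a* plus *Hspa1b* to *Hspa8* was -5.96, -5.97 and -5.95 in the CTRL libraries and -9.26, -8.78 and -8.88 in the cKO libraries. The inducible HSP70 genes were thus lower than *Hspa8* in every library, and by a further 3.01 log2 units on average in cKO libraries. The ratio of *Dnajb1* to *Dnaja1* was 0.61, 0.55 and 0.57 in CTRL and -0.10, -0.055 and -0.059 in cKO libraries. *Dnajb1* was therefore the more abundant of these J protein genes per length in every CTRL library and the less abundant in every cKO library, with 59.9% and 48.7% of their sum. The ratio of *Hsp90aa1* to *Hsp90ab1* was -2.07, -2.07 and -2.11 in CTRL and -2.04, -1.99 and -2.01 in cKO libraries, a difference of 0.068 with no overlap. For *Hspd1* to *Hspe1* the ratio was -0.060, -0.061 and -0.10 in CTRL and -0.21, -0.039 and -0.20 in cKO libraries, and these overlapped.

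**Figure D4:**
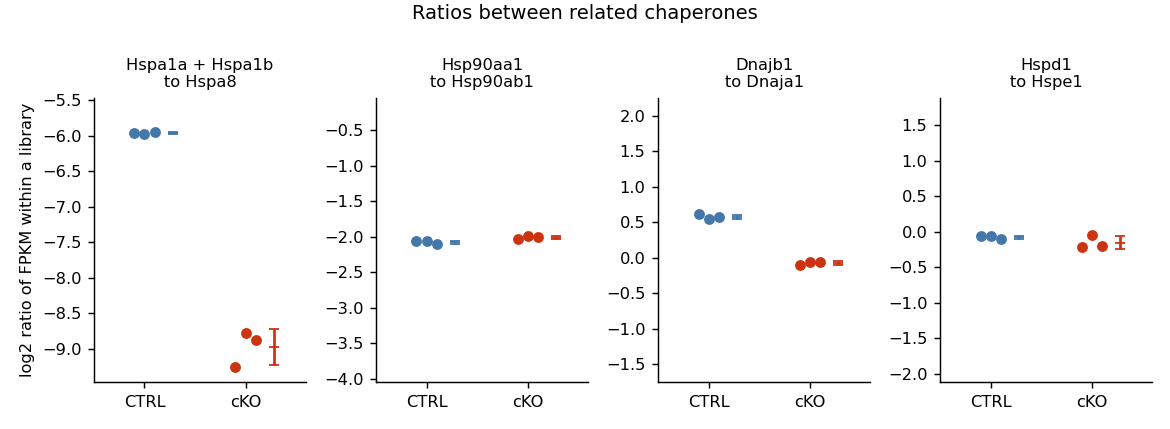
Log2 ratio of FPKM between related chaperone genes within each library, CTRL in blue and cKO in red, with the mean and SD of 3 libraries to the right of the points. Every panel spans 4 log2 units, so the distances compare directly, and the ratio of the *Hspa1* genes to *Hspa8* has the widest gap, 3.01 log2 units.

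The members together took 0.887% of all reads on genes in CTRL and 0.868% in cKO libraries. By mean CTRL level, the order was *Hsp90ab1*, *Hspa8*, *Hsp90aa1*, *Hspe1*, *Hspd1*, *Dnajb1*, *Dnaja1*, *Hsph1*, *Hspa1b* and *Hspa1a*. The neighbours *Hspe1* and *Hspd1* overlapped in their CTRL values, and the other neighbours in this order did not. In cKO libraries the order was the same except that *Dnaja1* stood above *Dnajb1*.

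Genes whose profile over the 6 libraries was most like the mean profile of the 5 inducible members were sought among 7161 genes that averaged 5 FPKM or more, by the root mean square difference of log2(FPKM + 1) after subtracting each gene's CTRL mean. That mean profile lay 0.75 to 0.85 below its control level in the cKO libraries and is set mostly by *Hspa1a* and *Hspa1b*. No inducible member had this profile itself, with log2 fold changes of -2.40, -1.11, -0.42, -0.10 and 0.05. The search thus finds genes that differ by about the same amount as an average. It does not show likeness to a single chaperone gene. The nearest genes were *Tmem229b*, *Atp8b4*, *Rin3*, *Mpo* and *Unc93b1*, with differences of 0.013 to 0.042. *Mpo*, which encodes the myeloperoxidase of neutrophil granules, was at 3331 FPKM in CTRL and 1953 FPKM in cKO libraries on average. None of these 5 genes is a chaperone gene.

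Other genes of the chaperone network were counted with limma's test, adjusted over all 11552 genes. Of 116 genes listed, 115 were in the table and 99 were tested, and 37 were higher, 13 were lower and 49 did not pass. The median log2 fold change over the 99 genes was 0.053. These counts stand beside the 19.9% and 20.6% of all genes that passed as higher and lower.

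**Figure D5:**
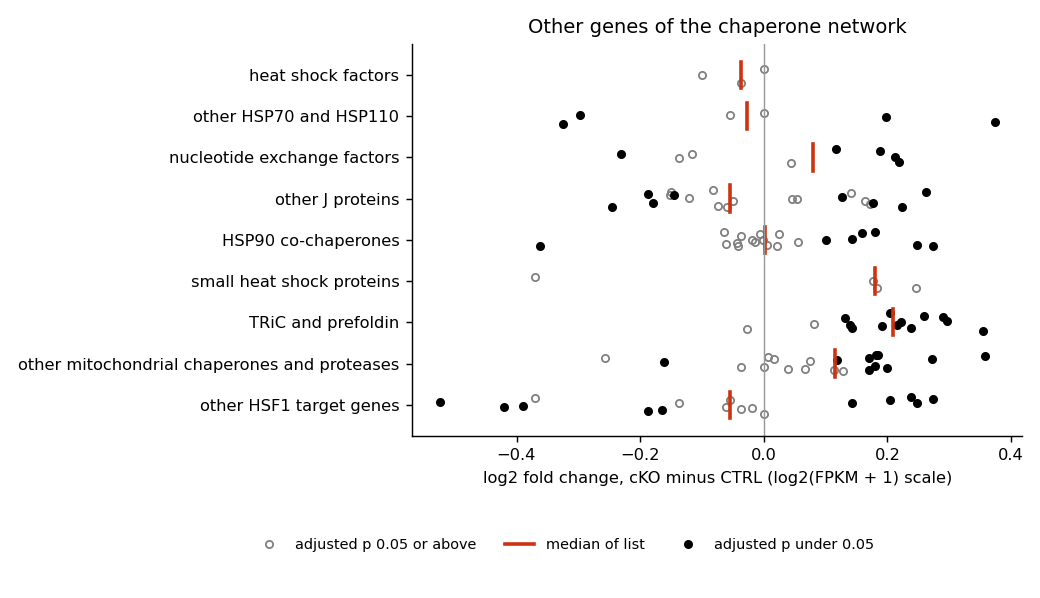
Log2 fold change (cKO minus CTRL, log2(FPKM + 1) scale) of the tested genes of 9 chaperone network lists, which share 17 genes. Filled points have a limma adjusted p under 0.05, open points do not, and red bars mark list medians, the highest at 0.21 for TRiC and prefoldin.

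Among regulators, 0 of 3 tested genes passed limma's test, 0 had an unadjusted p under 0.05 and 0 passed with voom. *Hsf1*, the master regulator of the heat shock response, had 9.95 ± 0.222 FPKM (SD, n = 3) in CTRL and 9.23 ± 0.373 FPKM in cKO libraries (log2 fold change -0.10, limma adjusted p = 0.105). *Hsf2*, which can form mixed trimers with HSF1, had a log2 fold change of -0.037 (limma adjusted p = 0.767). Transcript levels do not show the activity of HSF1, which is controlled at the protein.

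Of 17 tested genes from a list of other HSF1 targets, 5 rose and 5 fell. *Zfand2a*, which encodes a proteasome-associated zinc finger protein induced by arsenite, fell from 6.68 ± 0.231 to 4.76 ± 0.628 FPKM (SD, n = 3; log2 fold change -0.42, limma adjusted p = 0.00765). *Dedd2* fell from 14.4 to 10.7 FPKM. The genes with the largest rise were *Ppid*, a cyclophilin of HSP90 complexes, with 0.27, *Cacybp* with 0.25 and *Cct8* with 0.24 on the log2 scale. Of all genes tested, 19.9% passed as higher and 20.6% as lower, and a difference of this list from those shares was not tested. The small heat shock proteins, several of which are strong HSF1 targets in other cells, were scarce. Of 10 genes, 4 were tested, and 0 passed limma's test, 1 had an unadjusted p under 0.05 and 0 passed with voom. The first of these was *Cryab*, with 1.44 FPKM in CTRL and 0.888 FPKM in cKO libraries (limma adjusted p = 0.0582).

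Among partners of HSP70, 6 further HSP70 and HSP110 genes were tested. *Hspa12b* and *Hspa14*, a ribosome-associated HSP70, rose by 0.37 and 0.20 on the log2 scale, and *Hspa2* and *Hspa13* fell by 0.32 and 0.30. The call of *Hspa13* was lost without CTRL library 2 (adjusted p 0.0501). That of *Hspa12b* rested on a level near 1 FPKM and was lost when CTRL library 1, cKO library 2 or cKO library 3 was left out (adjusted p 0.0554 to 0.0611). Of 8 nucleotide exchange factors, 4 rose, among them *Bag2* by 0.22 and *Hspbp1* by 0.21, and *Bag6* fell by 0.23. *Sil1*, the exchange factor of the endoplasmic reticulum, rose by 0.19, a call lost in 8 of the alternative fits (adjusted p 0.0501 to 0.119), including those without CTRL library 2 or 3 or cKO library 1 or 2. Of 20 other J protein genes, 4 rose and 4 fell, close to the 19.9% and 20.6% of all genes tested that passed as higher and lower. *Dnajc17* and the ribosome-bound *Dnajc2* rose by 0.26 and 0.22, and *Dnajc7*, which bridges HSP70 and HSP90, by 0.18. *Dnajc14*, *Dnajb4* and *Dnajb6*, a suppressor of protein aggregation, fell by 0.25, 0.19 and 0.18, but the call of *Dnajb4* was lost in 8 alternative fits (adjusted p 0.0582 to 0.159), including those without any one library other than cKO library 2. The call of *Dnajc14* was lost without CTRL library 1 or 3 or cKO library 3 (adjusted p 0.0529 to 0.0583). That of *Dnajc17* was lost without CTRL library 3 or cKO library 1 and after GC content and length correction (adjusted p 0.0546 to 0.0781).

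Of 20 HSP90 co-chaperone genes, 6 rose and 1 fell, with a median log2 fold change of 0.0018. *Ppid* and *Cacybp* are named above, and *Ahsa2*, related to the activator of the HSP90 ATPase, rose by 0.18, a call lost without CTRL library 3 (adjusted p 0.052). *Fnip1*, which slows that ATPase, fell from 2.49 ± 0.0844 to 1.71 ± 0.133 FPKM (log2 fold change -0.36, limma adjusted p = 0.00562).

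The cytosolic chaperonin TRiC, which folds actin and tubulin, is the counterpart of the mitochondrial HSP60 barrel, and prefoldin delivers substrates to it. All 8 tested TRiC subunit genes rose, by 0.13 to 0.29 on the log2 scale. *Cct6a* rose from 96.8 ± 1.42 to 118.6 ± 3.24 FPKM (limma adjusted p = 0.000476). Of 6 prefoldin genes, 4 rose, led by *Pfdn1* with 0.35 and *Pfdn6* with 0.30, which did not pass after GC content and length correction (adjusted p 0.0562). The median of the whole list was 0.21.

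Of 20 other mitochondrial chaperone and protease genes, 9 rose and 1 fell, with a median log2 fold change of 0.12. *Clpp*, a protease of the matrix, rose from 66.3 ± 3.10 to 85.2 ± 1.17 FPKM (log2 fold change 0.36, limma adjusted p = 0.000633). *Dnajc19*, of the import motor, rose by 0.27 and *Hscb*, a J protein of iron-sulphur cluster assembly, by 0.20. *Spg7*, a subunit of an inner membrane protease, fell by 0.16. The calls of *Hscb* and *Spg7* were lost after GC content and length trends were removed (adjusted p 0.336 and 0.0641).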

How the data were processed

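LSK cells were sorted from 3 CTRL and 3 cKO samples, and libraries were prepared with an Illumina TruSeq RNA kit, which does not mark strand. Per the submitters' processing notes, HISAT2 2.0.5 and the build mm10 were used. The counting program and its treatment of reads that fit several genes are not given in the sources used here. The authors deposited FPKM values, scaled by gene length and library size, in a table that also lists those lengths.

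The reads behind each value were recovered by multiplying FPKM by length and dividing by the smallest step of the library, and 100% of values came out whole (tolerance 0.05). The floor of 3 reads covers counting error only. The 11552 genes that averaged 1 FPKM or more were fitted with limma 3.58.1 in R 4.3.3 (lmFit, then eBayes with trend) on log2(FPKM + 1). Two-sided p-values were adjusted over these genes by the Benjamini-Hochberg method, and genes were called at an adjusted p under 0.05. Adjusted p come from this fit, which was tested on simulated data first, except those given for a named alternative (a library left out, GC content and length correction, or another alternative fit).

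Of each list, at most 3 genes in each direction with the largest change among those called were named, together with the members, *Myh9*, *Hsf1*, *Hsf2* and the 5 genes of most similar profile. *Cryab*, *Hspa1l*, *Gm10501*, *Gm20481* and the cell type markers given by name were named after their values were seen. The members, their classes and the gene lists were chosen with earlier results of these data known. A gene that this rule names is not reported here. The listed gene *Dnajc20* was not in the table under that name. Promoter windows came from RefSeq (GRCm38.p6), and shared stretches and exons from GENCODE M21 transcripts (GRCm38), where all 10 members had the deposited coordinates. Alternatives covered the pseudocount, filter, scaling, voom on recovered reads, a replicate block, GC content and length, each library left out, class membership and the promoter window.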

Additional observations from a re-analysis of the deposited data

How the results depend on the processing

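The members' values kept their direction under every alternative with 2 exceptions, *Hsp90aa1* under quantile normalization (-0.0093) and *Hsp90ab1* under voom (0.0053). *Hsp90aa1* passed the threshold under median-of-ratios scaling and voom. With a mean of at least 5 FPKM, *Hspa1a* and *Hspa1b* were not tested, which left 2 members lower and an inducible median of -0.10. With a call that needed a 2-fold change and p under 0.05 without adjustment, 165 of all genes were higher and 81 lower, 0 and 0 of the wider network (limma, against 37 and 13 at an adjusted p under 0.05), and 0 and 2 of the members. The inducible median was -0.26 with *Dnaja1* and -0.76 without *Hsph1*. The constitutive median was -0.15 without *Dnaja1*, -0.058 with *Hsph1* and -0.052 under quantile normalization. The mitochondrial median was 0.18 without GC content and length trends, and the cause was not tested. Samples that share a number in the labels did not deviate together (r -0.00459, -0.0112 and -0.0262), and no cKO library correlated best with the CTRL library of its number. With a replicate block, 2063 genes were higher and 2044 lower, 36 and 12 of the wider network and 3 and 4 of the members, and of the genes named *Dnajb4* lost its call. When each library was left out in turn, the members remained at 3 higher and 4 lower, and the wider network ranged from 30 to 35 higher and from 11 to 13 lower. Among the genes named from the wider network, 30 refits lost a call, 478 did not change it, and none of the calls reversed. With the 250 bases before the start alone, the counts of members with a match were 5, 3 and 2. Depth limits *Hspa1a* and *Hspa1b* in cKO libraries, at 13 to 38 reads.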
